A study of Mus musculus with 8 samples.

Results

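Endothelial and vascular growth genes, 41 in all, were followed in the newborn mouse heart at 2 ages, postnatal day 1 and postnatal day 7. They were chosen by name, with earlier results of these data known. Where a symbol had several loci, the locus with the highest mean level over all hearts was taken. The set holds 23 genes used by most endothelial cells, 6 that mark arterial or venous cells, 4 of capillary cells, 5 of lymphatic cells and 3 secreted angiopoietin and VEGF ligands. All 41 were found among the 80155 gene loci of the files, of which 39614 carry a gene symbol and are called annotated here. Whole hearts without their atrial appendages were taken from male mice of the outbred strain Hsd:ICR(CD-1), 4 at postnatal day 1 (P1) and 4 at postnatal day 7 (P7). The labels state no treatment and no mutation. Each heart was 1 mouse and gave 1 RNA-seq library from RNA depleted of ribosomal RNA. Expression is given as FPKM, in which the fragments counted at a locus are divided by its length and by the number of mapped fragments in the library. The files hold no fragment counts, so the depth behind a value is unknown.

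Endothelial cells line every vessel and are held together by junction proteins such as VE-cadherin and claudin 5. VEGF ligands act through the receptors Flt1, Kdr and Flt4, angiopoietins act through Tek with the related receptor Tie1, and Notch signaling together with the ephrins helps to set arterial against venous identity. In the heart the capillary bed lies close to the muscle cells, takes up fatty acids for them and grows along with them after birth.

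The study compared P1 and P7 hearts because the mouse heart loses its ability to regenerate within this week. Over it, 16 of the 41 genes were higher in P7 and 0 were lower. A gene was called changed when the Benjamini-Hochberg adjusted p of limma was under 0.05 and the ratio of mean FPKM was at least 1.5. Of all annotated loci tested, 7.74% were called higher and 0.401% lower. Among annotated loci with a mean FPKM of at least that of the lowest of the 41 genes, 10.7% were called higher. The median log2 fold change of the 41 genes, P7 minus P1 on the scale of log2(FPKM + 1), was 0.62, against 0.19 over all annotated loci tested. The change was positive for 36 genes and negative for 5, where 67.6% of annotated loci were positive. Every P7 heart lay above every P1 heart for 18 genes (17.3% of annotated loci) and below for 1, Emcn (2.69% of annotated loci). At an unadjusted p under 0.05, 26 genes were higher (25.6% of annotated loci) and 2, Emcn and Angpt1, were lower (4.1%). The count of 16 moved when single hearts were left out, and ranged from 5 to 20 over the 8 such fits. It was 5 without P1 replicate 2, without P7 replicate 1 or without P7 replicate 3, and 6 without P1 replicate 3. The shares of annotated loci called in these fits were not taken. A loss of calls particular to these genes therefore cannot be told from a loss at all loci. In RNA from a whole heart, more endothelial cells and more RNA of these genes per cell cannot be told apart. Beside some of the genes whose direction or call depends on them, values are also given after GC correction, which takes from each heart the trend of its values with the GC content of the transcripts, and with the hearts rescaled by the median ratio of their annotated loci (median-ratio scaling) or to a shared distribution (quantile normalization).

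By class, calls were made for 10 of the 23 pan-endothelial genes, 4 of the 6 arterial and venous genes and 2 of the 4 capillary genes. No call was made for the 5 lymphatic genes or the 3 ligands, of which 1 lymphatic gene (Pdpn) and 1 ligand (Vegfb) were higher at an unadjusted p under 0.05. The median log2 fold change was 0.74 for pan-endothelial genes, 0.89 for arterial and venous genes, 0.96 for capillary genes, 0.36 for lymphatic genes and -0.58 for the ligands. The ligand median is the value of Angpt2 itself, whose locus is uncertain as described below. Another locus with the symbol Angpt2 had a log2 fold change of -0.06. These lists are small, and the differences between them were not tested.

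**Figure D1:**
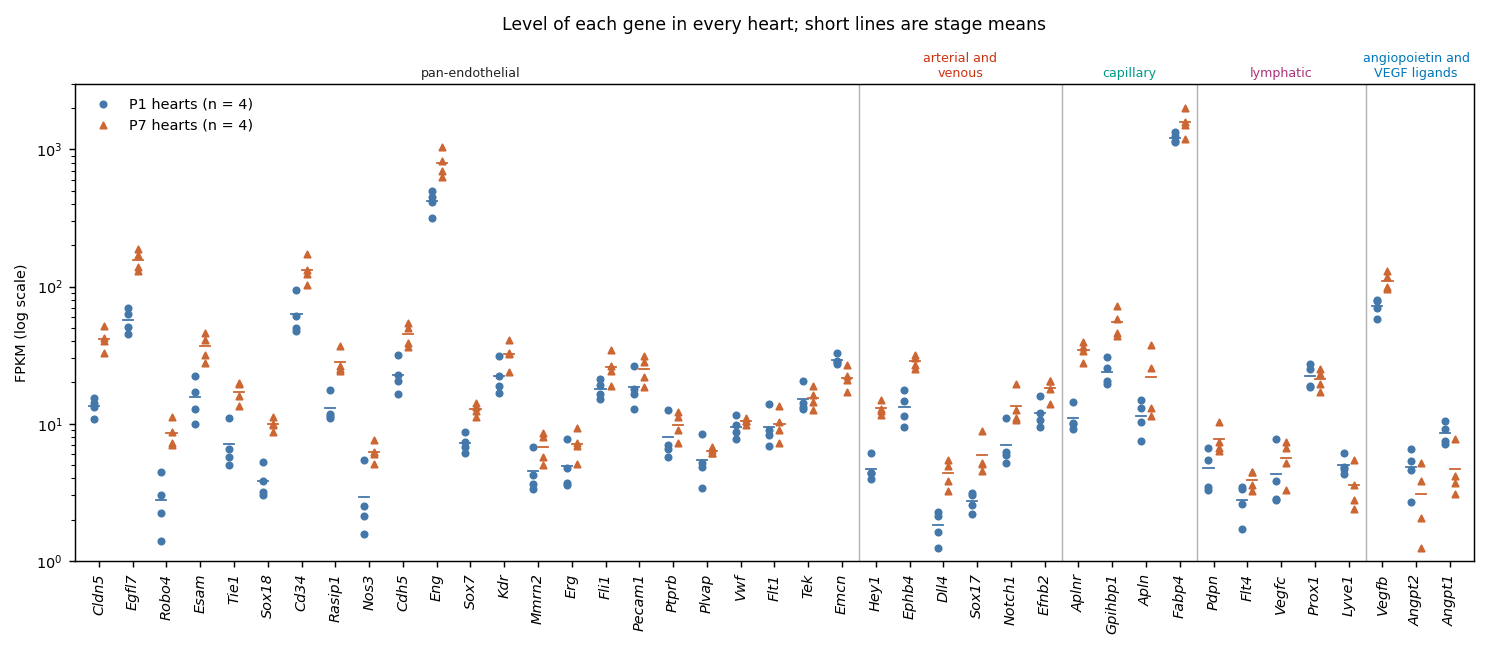
FPKM of the 41 genes in each heart on a log scale, with circles for the 4 P1 hearts, triangles for the 4 P7 hearts and short lines for the means of each stage. Genes are grouped by class and sorted by change, so that the called genes such as Cldn5 and Hey1 stand at the left of their groups and Emcn, Lyve1 and Angpt1, with lower P7 means, at the right.

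All 41 genes passed the filter on low values, an FPKM of 1 or more in some heart, and were tested. Fabp4, a fatty acid carrier of capillary endothelium and fat cells, was the highest, at 1152, 1257, 1343 and 1126 FPKM in the P1 hearts and 1586, 1195, 2002 and 1512 FPKM in the P7 hearts. The highest pan-endothelial level was listed for Eng, the co-receptor endoglin, at 501, 411, 317 and 447 FPKM in the P1 hearts and 697, 626, 1035 and 819 FPKM in the P7 hearts, but its locus also carries Ak1, and the fragments of the 2 genes cannot be told apart. Egfl7 shared its locus with Fam69b, Gm20532 and Mir126, Esam with Vsig2, and Rasip1 with Izumo1. Without these 4 loci, 13 of 37 genes were called higher and 0 lower. The lowest levels were those of Dll4 at P1, a mean of 1.82 FPKM, where the added pseudocount of 1 makes the fold change smaller than the ratio of means.

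The largest pan-endothelial changes were those of Cldn5, Egfl7 and Robo4. Cldn5, the claudin of endothelial tight junctions (GRCm38 chr16:18776847-18778260), was at 15.4, 10.9, 13.2 and 14.1 FPKM in the P1 hearts and 42.2, 32.9, 51.6 and 39.8 FPKM in the P7 hearts (log2 fold change 1.56, SE 0.19, adjusted p = 0.00379). The lowest P7 heart was above 15.4 FPKM, the highest P1 heart. Egfl7, a secreted protein of the vessel wall (chr2:26580014-26636497), was at 69.2, 50.5, 45.2 and 63.2 FPKM in the P1 hearts and 171, 129, 189 and 138 FPKM in the P7 hearts (log2 fold change 1.45, SE 0.21, adjusted p = 0.00694). Its mean rose 2.75-fold with no overlap between the stages. Robo4, a guidance receptor that stabilises vessels (chr9:37401897-37415265), was at 3.01, 2.25, 1.39 and 4.41 FPKM in the P1 hearts and 8.71, 7.00, 11.2 and 7.29 FPKM in the P7 hearts (log2 fold change 1.39, SE 0.25, adjusted p = 0.0162). The P1 hearts of Robo4 spread widely, with P1 replicate 3 the lowest and P1 replicate 4 the highest, and stayed below all P7 hearts.

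Esam, an adhesion molecule of tight junctions (chr9:37528078-37552745), was at 17.1, 12.7, 9.91 and 22.5 FPKM in the P1 hearts and 41.1, 27.9, 45.7 and 31.8 FPKM in the P7 hearts (log2 fold change 1.22, SE 0.25, adjusted p = 0.0242). Cdh5, which encodes VE-cadherin of adherens junctions (chr8:104101625-104144502), was at 22.8, 20.4, 16.3 and 31.6 FPKM in the P1 hearts and 49.6, 36.01, 54.7 and 38.98 FPKM in the P7 hearts (log2 fold change 0.96, SE 0.23, adjusted p = 0.0376). P1 replicate 4 was the highest and P1 replicate 3 the lowest P1 heart for Esam and Cdh5 alike, and the stages did not overlap. Cd34, a sialomucin of the endothelial surface (chr1:194938821-195037908), was at 61.2, 47.6, 50.2 and 95.2 FPKM in the P1 hearts and 132, 102, 172 and 124 FPKM in the P7 hearts (log2 fold change 1.08, SE 0.25, adjusted p = 0.0352). P1 replicate 4 stood well above the other P1 hearts for Cd34. Rasip1, needed for the opening of vessel lumens (chr7:45621811-45639093), was at 17.7, 11.3, 11.1 and 11.8 FPKM in the P1 hearts and 26.5, 25.1, 37.01 and 24.1 FPKM in the P7 hearts (log2 fold change 1.07, SE 0.21, adjusted p = 0.0207). P1 replicate 1 was the highest P1 heart for Rasip1 and was below all P7 hearts.

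Other surface and secreted pan-endothelial genes were not called. Pecam1, the adhesion molecule CD31, was at 17.9, 16.5, 12.7 and 26.5 FPKM in the P1 hearts and 28.2, 18.6, 31.3 and 21.9 FPKM in the P7 hearts (log2 fold change 0.44, SE 0.24, adjusted p = 0.345), and its stages overlapped. Nos3, the endothelial nitric oxide synthase, lay between 1.56 and 5.42 FPKM at P1 and between 5.11 and 7.61 FPKM at P7 (log2 fold change 0.97, SE 0.26, adjusted p = 0.0630). It was called higher with median-ratio scaling (log2 fold change 0.79, adjusted p = 0.0367). Eng had an adjusted p of 0.0517 with every P7 heart above every P1 heart, and it was called higher with quantile normalization (0.72, adjusted p = 0.049999). Nos3 and Eng were also called higher with the filter on every heart and with sample quality weights. Mmrn2, a matrix protein of endothelial cells, had a log2 fold change of 0.51 (adjusted p = 0.262), and Ptprb, a receptor phosphatase that acts on Tek and VE-cadherin, one of 0.31 (adjusted p = 0.479). The change of Vwf, the clotting factor stored in endothelial cells, was 0.14 with an adjusted p of 0.650, but -0.21 after GC correction, -0.08 with median-ratio scaling and -0.13 with quantile normalization. That of Plvap, which forms the diaphragms of fenestrated vessels, was 0.24 with an adjusted p of 0.535, but -0.22 after GC correction. Emcn, the sialomucin endomucin of venous and capillary cells, was at 28.01, 28.7, 27.4 and 32.6 FPKM in the P1 hearts and 22.2, 17.1, 26.6 and 20.8 FPKM in the P7 hearts (log2 fold change -0.43, SE 0.19, adjusted p = 0.244). All P7 hearts were below all P1 hearts for Emcn, and it was called lower when the hearts were rescaled by the median ratio (log2 fold change -0.66, adjusted p = 0.0106) or by quantiles (-0.69, adjusted p = 0.00739). Emcn was not called after GC correction (-0.14, adjusted p = 0.651) or with GC correction and median-ratio scaling together (-0.37, adjusted p = 0.0769).

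The SoxF transcription factors, which act in arterial and lymphatic development, were called higher. None of them was called after GC correction (adjusted p = 0.0749 for Sox18, 0.0677 for Sox7 and 0.116 for Sox17). Sox18 (chr2:181668439-181671663) was at 5.25, 3.20, 3.00 and 3.85 FPKM in the P1 hearts and 11.1, 9.77, 9.99 and 8.77 FPKM in the P7 hearts (log2 fold change 1.20, SE 0.19, adjusted p = 0.0103). Sox7 (chr14:63943674-63950732) was at 7.38, 6.76, 6.11 and 8.66 FPKM in the P1 hearts and 12.4, 11.1, 14.1 and 13.3 FPKM in the P7 hearts (log2 fold change 0.74, SE 0.18, adjusted p = 0.0387). The stages of Sox7 did not overlap, but it was called in 4 of 12 other settings of scaling, filter, correction and test and in 2 of the 8 fits that left out a heart, and not with median-ratio scaling (0.52) or quantile normalization (0.49), where the ratio was under 1.5. Sox17 (chr1:4488628-4496744), the member listed with the arterial genes, was at 3.02, 2.55, 2.19 and 3.12 FPKM in the P1 hearts and 8.78, 5.11, 5.17 and 4.48 FPKM in the P7 hearts (log2 fold change 0.86, SE 0.21, adjusted p = 0.0452). P7 replicate 1 stood above the other P7 hearts for Sox17, and without it the log2 fold change was 0.68 and not called. Sox17 was called in 6 of the 12 settings and in 1 of the 8 fits that left out a heart. The ETS factors Erg and Fli1, which drive many endothelial genes, were not called, with log2 fold changes of 0.49 (adjusted p = 0.307) and 0.48 (adjusted p = 0.245).

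Among arterial and venous genes, Hey1, a Notch target gene of arterial cells (chr3:8663092-8667063), was at 6.07, 3.97, 4.40 and 4.35 FPKM in the P1 hearts and 12.4, 11.6, 14.98 and 12.9 FPKM in the P7 hearts (log2 fold change 1.30, SE 0.18, adjusted p = 0.00615). The P7 mean was 2.76 times the P1 mean. Ephb4, the venous ephrin receptor (chr5:137350109-137477064), was at 14.6, 11.4, 9.46 and 17.8 FPKM in the P1 hearts and 30.3, 26.6, 31.96 and 25.1 FPKM in the P7 hearts (log2 fold change 1.07, SE 0.21, adjusted p = 0.0202). Its arterial ligand Efnb2 was at 12.04, 10.7, 9.50 and 15.8 FPKM in the P1 hearts and 20.4, 13.8, 20.4 and 17.8 FPKM in the P7 hearts (log2 fold change 0.56, SE 0.21, adjusted p = 0.169). The stages did not overlap for Ephb4 and overlapped for Efnb2.

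Dll4, the Notch ligand of arterial and tip cells (chr2:119321187-119336675), was at 2.13, 1.62, 1.24 and 2.28 FPKM in the P1 hearts and 4.92, 3.21, 5.47 and 3.81 FPKM in the P7 hearts (log2 fold change 0.92, SE 0.21, adjusted p = 0.0323). Its receptor Notch1 was at 5.88, 6.19, 5.14 and 10.97 FPKM in the P1 hearts and 12.6, 10.6, 19.6 and 10.998 FPKM in the P7 hearts (log2 fold change 0.86, SE 0.25, adjusted p = 0.0869). Notch1 P1 replicate 4 reached the lower P7 hearts, and the gene was called higher with median-ratio scaling (log2 fold change 0.64, adjusted p = 0.0469). Notch1 was not called after GC correction (0.49, adjusted p = 0.339) or with quantile normalization (0.60, adjusted p = 0.0579).

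Capillary genes held the largest change of the 41. Aplnr, the apelin receptor of capillary and venous endothelium (chr2:85136360-85139922), was at 9.998, 9.20, 10.2 and 14.4 FPKM in the P1 hearts and 39.4, 33.9, 36.5 and 27.8 FPKM in the P7 hearts (log2 fold change 1.57, SE 0.20, adjusted p = 0.00379). Every P7 heart was at least 27.8 FPKM and every P1 heart at most 14.4 FPKM. Its ligand Apln, made by endothelial tip cells, was at 14.8, 10.3, 7.45 and 12.97 FPKM in the P1 hearts and 11.4, 13.02, 37.5 and 25.3 FPKM in the P7 hearts (log2 fold change 0.77, SE 0.34, adjusted p = 0.250). P7 replicates 3 and 4 were above all P1 hearts for Apln, and P7 replicates 1 and 2 were not. Gpihbp1, which carries lipoprotein lipase to the capillary lumen (chr15:75596528-75600515), was at 25.6, 20.5, 19.4 and 30.5 FPKM in the P1 hearts and 57.7, 46.1, 71.9 and 43.7 FPKM in the P7 hearts (log2 fold change 1.15, SE 0.22, adjusted p = 0.0188). The stages did not overlap for Gpihbp1. Fabp4 had a log2 fold change of 0.35 (adjusted p = 0.416), and P7 replicate 2 lay within the P1 hearts.

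**Figure D2:**
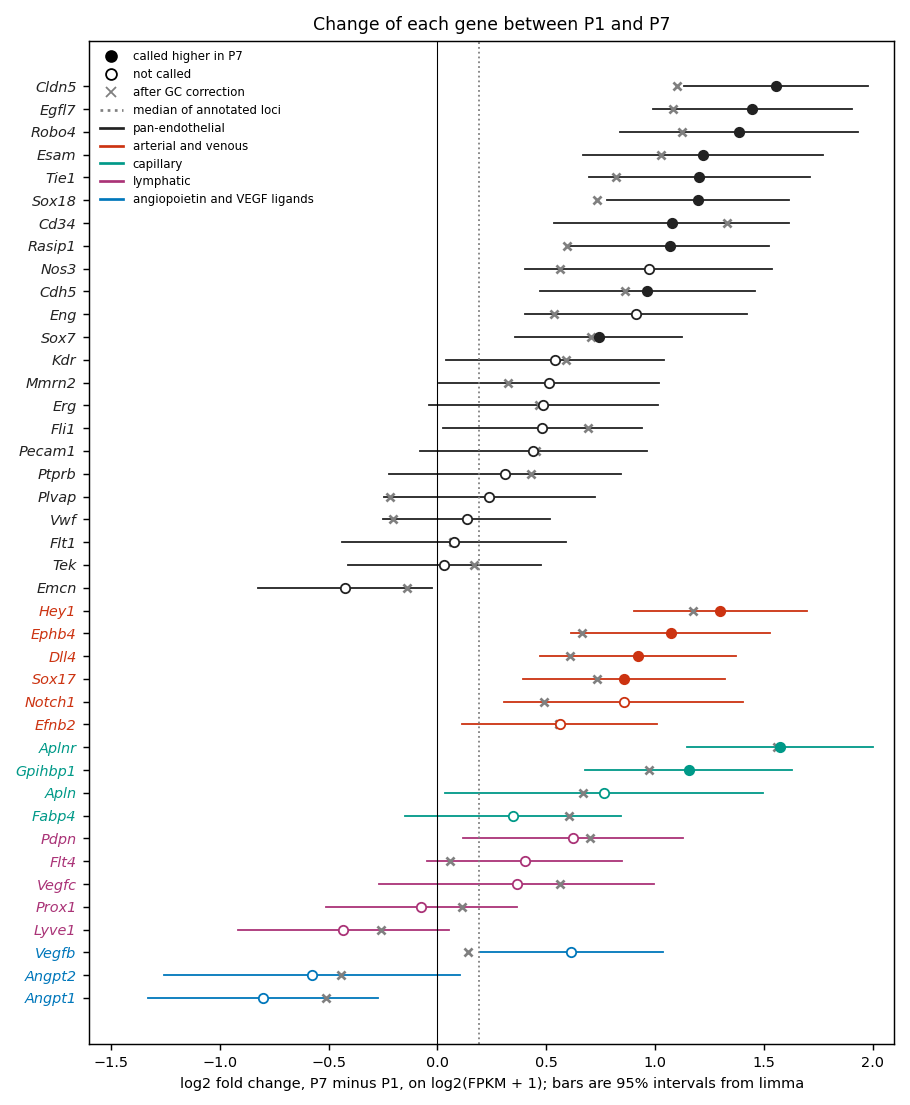
Log2 fold change (P7 minus P1 on log2(FPKM + 1)) of each gene with its 95% interval from limma, filled where the gene was called higher, with a cross for the value after correction for transcript GC content. The intervals of the 16 called genes lie above 0, and the crosses of Cldn5, Egfl7 and Sox18 lie to the left of their points while that of Cd34 lies to the right.

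None of the 3 VEGF receptors was called. Kdr, the main signaling receptor for VEGF-A, was at 22.3, 18.8, 16.6 and 31.1 FPKM in the P1 hearts and 32.7, 23.9, 40.9 and 32.2 FPKM in the P7 hearts (log2 fold change 0.54, SE 0.23, adjusted p = 0.236). Flt1, a VEGF-A receptor with weaker kinase activity, was at 8.96, 8.33, 6.86 and 13.9 FPKM in the P1 hearts and 10.3, 7.29, 13.4 and 8.98 FPKM in the P7 hearts (log2 fold change 0.08, SE 0.24, adjusted p = 0.859). The sign of the Flt1 change turned with median-ratio scaling (-0.14) and quantile normalization (-0.19), and neither receptor separated the stages. Flt4, the receptor of VEGF-C on lymphatic cells, was at 3.34, 2.58, 1.70 and 3.45 FPKM in the P1 hearts and 3.56, 3.24, 4.41 and 4.43 FPKM in the P7 hearts (log2 fold change 0.40, SE 0.21, adjusted p = 0.321). Its change was -0.13 with GC correction and median-ratio scaling together.

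Of the ligands, Vegfb, a VEGF abundant in heart muscle, was the highest of the 3, at 80.3, 79.2, 58.5 and 69.9 FPKM in the P1 hearts and 96.5, 99.1, 129 and 118 FPKM in the P7 hearts (log2 fold change 0.62, SE 0.19, adjusted p = 0.106). The stages did not overlap, and the log2 fold change was 0.14 after GC correction and -0.11 with median-ratio scaling added to it. Vegfa, from the list of other VEGF genes, was at 103, 76.4, 47.8 and 123 FPKM in the P1 hearts and 160.5, 165, 211 and 177 FPKM in the P7 hearts and was called higher (log2 fold change 1.09, SE 0.27, adjusted p = 0.0443), but not after GC correction (1.07, adjusted p = 0.0708). P1 replicate 3 was the lowest heart and P7 replicate 3 the highest for Vegfa. Vegfc, the lymphatic growth factor, was at 3.84, 2.76, 2.84 and 7.72 FPKM in the P1 hearts and 6.60, 3.27, 7.36 and 5.17 FPKM in the P7 hearts (log2 fold change 0.36, SE 0.29, adjusted p = 0.481). The hearts of the stages overlapped widely for Vegfc.

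Tie1, the partner receptor of Tek (chr4:118471087-118490061), was at 6.58, 5.71, 5.02 and 11.03 FPKM in the P1 hearts and 19.7, 15.9, 19.4 and 13.5 FPKM in the P7 hearts (log2 fold change 1.20, SE 0.23, adjusted p = 0.0201). Tek itself, the angiopoietin receptor, was at 13.3, 14.2, 12.9 and 20.5 FPKM in the P1 hearts and 18.8, 12.5, 16.3 and 14.3 FPKM in the P7 hearts (log2 fold change 0.03, SE 0.20, adjusted p = 0.933). Tie1 had no overlap between the stages, while Tek overlapped and turned to -0.20 with median-ratio scaling and -0.22 with quantile normalization. Angpt1, the ligand that activates Tek, was at 10.4, 9.21, 7.43 and 7.12 FPKM in the P1 hearts and 7.80, 4.13, 3.70 and 3.08 FPKM in the P7 hearts (log2 fold change -0.80, SE 0.24, adjusted p = 0.0964). P7 replicate 1 lay within the P1 hearts and the other P7 hearts below all of them. Angpt1 was called lower with median-ratio scaling (-1.01, adjusted p = 0.0383), with quantile normalization (-1.01, adjusted p = 0.0345), and without P7 replicate 1 (-1.03), as well as with the filter on every heart and with sample quality weights. It was not called after GC correction (-0.51, adjusted p = 0.293) or with GC correction and median-ratio scaling together (-0.71, adjusted p = 0.137). Over the 41 genes median-ratio scaling called 17 higher (8.05% of annotated loci) and 2 lower, Angpt1 and Emcn (3.67% of annotated loci), and it moved the median change of all annotated loci from 0.19 to 0.0095.

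Angpt2, which competes with Angpt1 at Tek, is uncertain in these files. Its symbol was carried by 17 loci of the same span, chr8:18595131-18803519, with mean levels between 0.526 and 3.95 FPKM. The gene is annotated on the minus strand, and the order of loci in the file placed 16 of the 17 in the run of plus-strand loci. The order is an imperfect guide, as the annotated strand matched for 92.9% of the loci compared in the plus-strand run and 89.8% in the minus-strand run. The locus with the highest mean, 1 of those 16, was at 4.62, 2.71, 6.59 and 5.38 FPKM in the P1 hearts and 5.16, 3.80, 2.07 and 1.25 FPKM in the P7 hearts (log2 fold change -0.58, SE 0.31, adjusted p = 0.345). The only Angpt2 locus in the minus-strand run was at 1.53, 1.54, 1.22 and 3.00 FPKM in the P1 hearts and 2.25, 1.44, 1.54 and 1.38 FPKM in the P7 hearts (log2 fold change -0.06, SE 0.22, adjusted p = 0.876). This locus was chosen after the values were seen. The stages overlapped at both loci.

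The lymphatic genes gave no call. Prox1, a master factor of lymphatic cells that heart muscle cells also express, was the highest of them at 25.03, 18.7, 18.6 and 27.03 FPKM in the P1 hearts and 22.96, 16.96, 25.2 and 19.3 FPKM in the P7 hearts (log2 fold change -0.07, SE 0.20, adjusted p = 0.838), and its sign turned to 0.11 after GC correction. Pdpn, the surface protein podoplanin, lay between 3.31 and 6.68 FPKM at P1 and 6.33 and 10.3 FPKM at P7 (log2 fold change 0.62, SE 0.23, adjusted p = 0.177). Lyve1, a hyaluronan receptor of lymphatic cells and resident macrophages, lay between 4.29 and 6.15 FPKM at P1 and 2.38 and 5.48 FPKM at P7 (log2 fold change -0.43, SE 0.22, adjusted p = 0.322). The stages overlapped for each of the 5 genes.

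A ratio of 2 genes within a heart does not depend on how that heart was scaled, but it can move with the GC content of the 2 transcripts. Of 15 ratios chosen by pathway, 4 had no overlap between the stages and 11 overlapped. As a background, the ratio of an annotated locus to Pecam1 had no overlap for 26.6% of loci, 8.21% with P7 higher and 18.4% with P7 lower. The share of 4 in 15 was close to this. Most of the 15 ratios have a denominator other than Pecam1, and no background was taken for those. Tie1 to Tek was 0.497, 0.401, 0.389 and 0.537 in the P1 hearts and 1.05, 1.27, 1.19 and 0.941 in the P7 hearts, a 2.45-fold rise. These 2 transcripts have a GC content of 57.6% and 47.1%, and after GC correction, on log2(FPKM + 1), the rise was 1.57-fold, with no overlap. Gpihbp1 to Pecam1 was 1.34 ± 0.17 (SD, n = 4) at P1 and 2.20 ± 0.22 (SD, n = 4) at P7. Tie1 and Gpihbp1 had the larger log2 fold change of each pair.

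Flt1 to Kdr was 0.403, 0.443, 0.412 and 0.448 in the P1 hearts and 0.315, 0.304, 0.328 and 0.279 in the P7 hearts. The spread within a stage was small for this ratio, with SDs of 0.022 and 0.021. Efnb2 to Ephb4 was 0.915 ± 0.077 (SD, n = 4) at P1 and 0.635 ± 0.083 (SD, n = 4) at P7. With a GC content of 50.4% and 58.4%, the log2 difference of this ratio went from -0.53 to -0.10 after GC correction, and the stages then overlapped. In the two-sided exact permutation test each of these 4 ratios had p = 0.0286, the smallest that 4 hearts against 4 allow, and an adjusted p of 0.107 over the 15 ratios. None of the 15 passed the threshold. After GC correction 8 of the 15 had no overlap (18.9% of annotated loci in their ratio to Pecam1), and the lowest adjusted p over the exact permutation tests was 0.0536. The 8 were Tie1 to Tek and Gpihbp1 to Pecam1 with P7 higher, and Flt1 and Flt4 to Kdr, Vegfb to Vegfa, Plvap and Vwf to Pecam1 and Lyve1 to Mrc1 with P7 lower. Angpt2 to Angpt1, with the uncertain Angpt2 locus, was 0.595 ± 0.27 (SD, n = 4) at P1 and 0.637 ± 0.22 (SD, n = 4) at P7 (exact permutation p = 0.714). Apln to Aplnr was 1.06 ± 0.32 (SD, n = 4) and 0.653 ± 0.37 (SD, n = 4), and its stages overlapped (exact permutation p = 0.200).

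**Figure D3:**
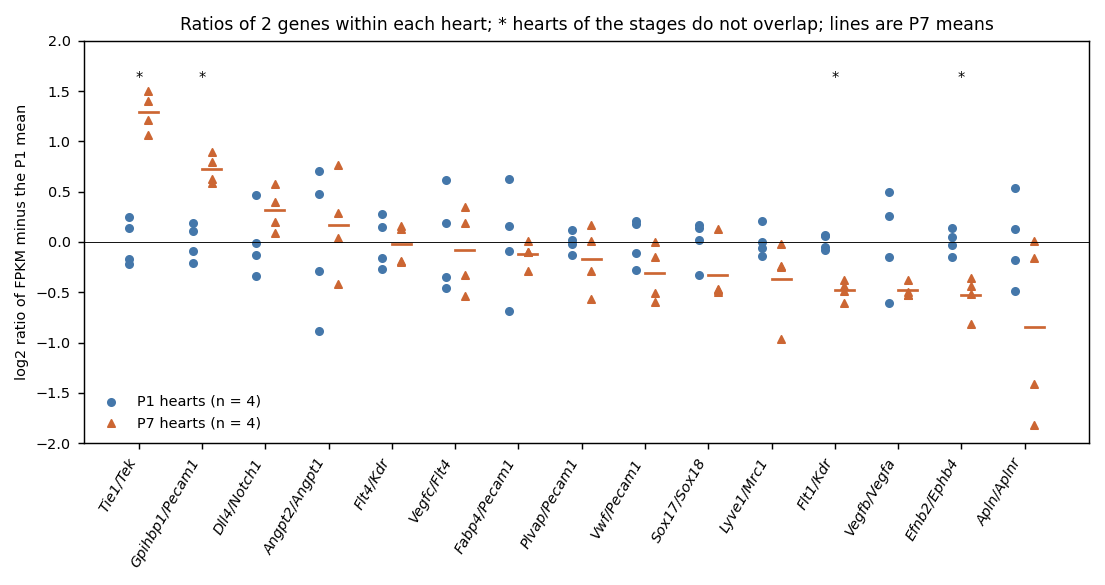
Log2 ratio of the FPKM of 2 genes within each heart, set to the mean of the P1 hearts, with circles for P1 and triangles for P7 hearts, lines for P7 means and an asterisk where the stages do not overlap. Tie1/Tek and Gpihbp1/Pecam1 lie above the P1 hearts and Flt1/Kdr and Efnb2/Ephb4 below them, while the other 11 overlap.

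When each heart was set to its mean log2 level over the 23 pan-endothelial genes, which asks how the other 18 genes moved beside them, Aplnr and Hey1 were called higher. Their log2 fold changes were then 0.83 and 0.60. Angpt1 (-1.47), Angpt2 (-1.18), Lyve1 (-1.06) and Prox1 (-0.83) were called lower, with Angpt2 read at its uncertain locus. With this scaling 1.65% of annotated loci were called higher and 30.6% lower, so a lower call was common among all loci.

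Changes over the week went with the GC content of the transcript, across all loci and in this set. Over the 41 genes, Pearson's r between the GC content of the longest annotated transcript and the log2 fold change was 0.600 and Spearman's rho 0.575, and over 15430 annotated loci they were 0.469 and 0.526. Genes in 1 heart share its library and are not independent, so these are descriptions. The median GC content was 54.3% in the 16 called genes (42.8% to 63.6%) and 50.2% in the 25 others (39.3% to 62.6%). Below 45% GC, 1 of 6 genes was called (1.06% of annotated loci of that GC), from 45% to 50% 0 of 7 (2.53%), from 50% to 55% 8 of 14 (8.61%), from 55% to 60% 4 of 9 (25.3%) and from 60% 3 of 5 (34.6%). The gene called below 45% GC was Cd34, at 42.8%.

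**Figure D4:**
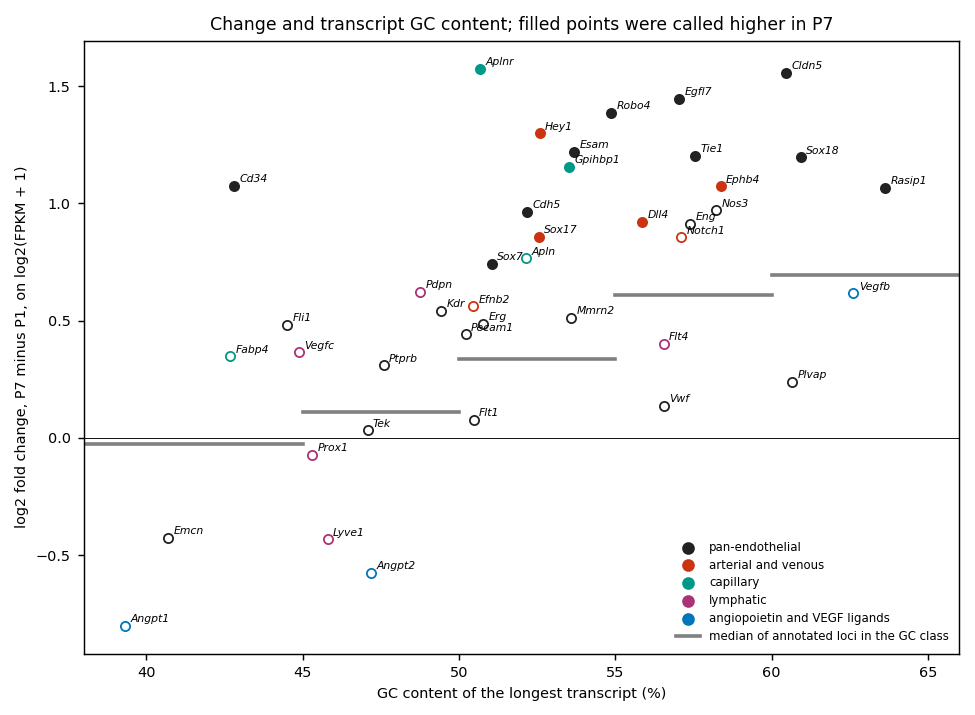
Log2 fold change of each gene against the GC content of its longest transcript in percent, filled where the gene was called higher, with grey bars for the median of all annotated loci in each GC class. Aplnr, Hey1 and Cd34 lie well above the bar of their class, Rasip1 and Sox18 lie nearer to theirs, and Angpt1 and Emcn lie below.

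After the trend with GC content was removed from every heart, 7 of the 16 were still called higher (2.12% of annotated loci), and 0 were lower (0.15%). The 7 were Cd34, Gpihbp1, Hey1, Robo4, Egfl7, Cldn5 and Aplnr. The corrected log2 fold change was 1.56 for Aplnr and 1.33 for Cd34, close to or above the uncorrected one. It was 1.10 for Cldn5, 1.08 for Egfl7 and 1.18 for Hey1. The calls of Tie1 (0.82), Sox18 (0.73), Rasip1 (0.59), Ephb4 (0.66), Dll4 (0.61), Sox17 (0.74), Sox7 (0.71), Esam (1.03) and Cdh5 (0.86) did not pass the threshold after it. With GC correction and median-ratio scaling together 9 genes were called higher (3.44%) and 0 lower (1.41%). Quantile normalization called 16 higher (7.67%) and 2 lower (3.31%), a filter of 1 FPKM in every heart 20 higher (19% of 12730 loci) and 1 lower (1.17%), and sample quality weights 20 higher (15.4%) and 1 lower (0.991%), so the background moved along with the count in the set under the filter and the weights. Egfl7, Cldn5, Robo4, Hey1 and Aplnr were called under each of 12 other settings of scaling (that to the pan-endothelial level apart), filter, correction and test, and all of these but Robo4 also with any 1 heart left out. Of the others, Sox18 was called in all 8 fits that left out a heart, Robo4 in 5, Tie1, Esam, Rasip1, Ephb4 and Gpihbp1 in 4, and Cdh5, Cd34 and Dll4 in 2. Whether GC content goes with the stage through the libraries or through the genes was not tested.

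Promoter sequence was looked at for the 4 called genes with the largest changes, which share their direction by the way they were picked. RefSeq windows on GRCm38.p6, from 250 bases before to 50 after a start, were at hand for 22 of the 41 genes and 8 of the 16 called ones, but not for Aplnr. The bases before the start of Cldn5, Robo4 and 1 start of Egfl7 are shown 5′ to 3′, with capitals for AGGAAG, an ETS core motif, on either strand. They lie at chr16:18776597-18776846, chr9:37401722-37401971 and chr2:26580833-26581082, each on the plus strand.
Cldn5: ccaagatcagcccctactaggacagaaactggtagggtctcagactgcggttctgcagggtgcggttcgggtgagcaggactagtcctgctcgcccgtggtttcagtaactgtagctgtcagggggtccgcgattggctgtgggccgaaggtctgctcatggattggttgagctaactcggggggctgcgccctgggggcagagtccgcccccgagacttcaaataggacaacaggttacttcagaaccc
Robo4: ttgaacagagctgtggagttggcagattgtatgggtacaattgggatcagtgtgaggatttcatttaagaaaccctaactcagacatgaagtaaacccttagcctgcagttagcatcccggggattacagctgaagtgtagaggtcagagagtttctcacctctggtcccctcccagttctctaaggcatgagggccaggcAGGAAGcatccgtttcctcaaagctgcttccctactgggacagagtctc
Egfl7: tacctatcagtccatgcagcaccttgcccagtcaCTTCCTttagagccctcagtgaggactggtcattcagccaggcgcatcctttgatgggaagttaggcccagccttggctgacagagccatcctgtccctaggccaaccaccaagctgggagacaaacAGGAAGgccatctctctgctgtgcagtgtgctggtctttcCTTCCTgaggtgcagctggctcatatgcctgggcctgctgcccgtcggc
The Egfl7 window shown held 3 matches, the most of its 3 windows, and the other windows of Egfl7 held 2 and 0. The Robo4 window held 1 match and the Cldn5 window none. AGGAAG was found in the windows of 10 of 22 genes, 5 of 8 called ones, and in 35.4% of all 32851 windows. AACAAT, a SOX motif, was found in 3 of 22 genes and 0 of 8 called ones (10.7% of all windows), and GTGGGAA, a motif of the Notch factor RBPJ, in 2 of 22 and 1 of 8 (6.38%). ACGTG, the core of the hypoxia response element, was found in 1 of 22 (19.6%). A zinc finger motif of blood and vessel cells, AGATAA, was found in 2 of 22 (11.2%). Each motif was searched on both strands and no motif contains another. Genes with several windows, such as Egfl7 with 3, had more bases searched, and a match is only a run of letters.

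Of 88 other genes of the same pathways, 85 were matched and 84 tested. Foxc2, Rgcc and Apela were not matched, and Etv2 was below the filter. Calls were made for 25 as higher and 0 as lower, beside the 7.74% and 0.401% of annotated loci, with a median log2 fold change of 0.56. At an unadjusted p under 0.05, 48 were higher (25.6% of annotated loci) and 1, Hey2, lower (4.1%), and Hey2 was called lower with median-ratio scaling (-0.93, adjusted p = 0.00318). The count of 25 was 4 without P1 replicate 2, 9 without P7 replicate 1, 10 without P7 replicate 3, 12 without P1 replicate 3, 15 without P1 replicate 1 and 16 without P7 replicate 4, and 9 after GC correction (2.12% of annotated loci). With a heart left out it reached at most 33, and the shares of annotated loci called in those fits were not taken.

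Vegfa alone was called among 8 other VEGF genes. Of 13 other Notch genes 5 were called, of 17 transcription factors 6, of 31 receptor and junction genes 7 and of 15 capillary lipid and gas exchange genes 6. The 8 largest changes among the called genes began with Ly6c1, a surface protein of capillary cells, at 7.01, 4.70, 5.49 and 7.93 FPKM in the P1 hearts and 37.3, 14.95, 27.4 and 18.6 FPKM in the P7 hearts (log2 fold change 1.75, SE 0.27, adjusted p = 0.00824). P7 replicate 1 was the highest heart for Ly6c1. Slc9a3r2, a scaffold protein of the cell membrane, had a log2 fold change of 1.57, Tcf15, a factor of heart capillary endothelium, one of 1.44, and Cd300lg, a capillary surface receptor, one of 1.43. Klf4, a flow-responsive factor (1.37), the water channel Aqp1 (1.33), the Notch ligand Jag2 (1.32) and the junction protein Jam2 (1.28) followed. Tcf15, Aqp1 and Jag2 were not called after GC correction. The Jam2 locus stood in the run of loci of the strand opposite to its annotation.

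**Figure D5:**
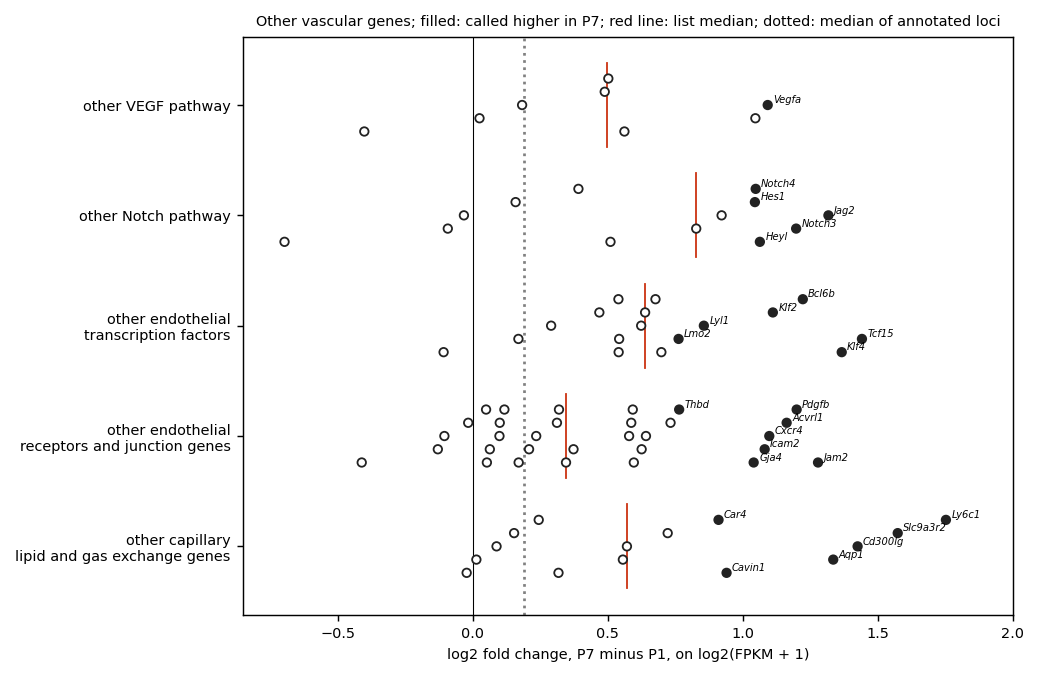
Log2 fold change of the 84 tested genes in 5 lists of other vascular genes, filled and named where called higher, with a red line for the median of each list and a dotted line for that of annotated loci. The list medians run from 0.35 for receptors and junction genes to 0.83 for Notch genes, all to the right of the dotted line at 0.19.

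Markers of other cells of the heart were measured beside these genes. In the same fit 7.74% of annotated loci were called higher and 0.401% lower. Fibroblast markers moved with the stage, with 5 of 8 called higher, Col3a1, Lum, Dcn, Tcf21 and Col1a1, and a summed level of 859 to 1759.9 FPKM at P1 and 1851 to 2338 FPKM at P7. Of 9 smooth muscle and pericyte markers, Pdgfrb and Kcnj8 were called higher and Cnn1 lower, with sums of 329.8 to 683 FPKM at P1 and 291 to 425 FPKM at P7. At an unadjusted p under 0.05, 4 of them were higher and 2, Acta2 and Cnn1, lower. Acta2, the highest by mean, changed by -0.90 (adjusted p = 0.126), with every P7 heart below every P1 heart. It was called lower with median-ratio scaling (-1.14, adjusted p = 0.0267), but not after GC correction (-0.86, adjusted p = 0.171). Of 5 platelet markers tested Gp1bb was called higher, at a locus that also carries Sept5. Ppbp had a log2 fold change of -1.03 (adjusted p = 0.114) with every P7 heart below every P1 heart, Pf4 one of -0.18, and the summed platelet level was 23.6 to 42.7 FPKM at P1 and 22.9 to 37.2 FPKM at P7. None of 5 endocardial, 10 cardiomyocyte, 5 atrial, 8 leukocyte, 5 erythroid, 6 epicardial, 3 adipocyte and 8 cell division markers was called by limma. At an unadjusted p under 0.05, 2 endocardial, 2 cardiomyocyte, 1 atrial, 4 leukocyte, 4 erythroid and 1 epicardial marker were higher, and Npr3, Hapln1, Nppa and Top2a were lower. Of annotated loci, 25.6% were higher and 4.1% lower by that p. The 5 endocardial markers summed to 29.8 to 41.7 FPKM at P1 and 29.2 to 48.8 FPKM at P7, and the summed pan-endothelial level was 596 to 912 FPKM at P1 and 1159.6 to 1856 FPKM at P7. The macrophage and leukocyte markers summed to 25.5 to 32.1 FPKM at P1 and 33.5 to 48.8 FPKM at P7, and the markers of fat cells, which also express Fabp4, summed to at most 0.616 FPKM at P1 and 6.45 FPKM at P7. A P1 heart held 21382 to 28662 loci of 1 FPKM or more, the most in P1 replicate 3, and a P7 heart 20269 to 21880. The part of these markers and of library breadth in the vascular changes was not tested.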

How the data were processed

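The deposited values are FPKM per locus for 8 hearts, 4 P1 and 4 P7. The authors had the reads aligned by a bioinformatics company, to GRCm38 per the submitters' processing notes, and summed and normalized per locus, and the aligner is not given in the sources used here. The sample titles give a stage and a replicate number, and the paper's methods describe RNA from 4 P1 and 4 P7 hearts. No counts are in the files, so count tests were not used and precision rests on the spread between hearts.

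A member was matched by symbol without regard to case after symbols joined by commas were split, and of several loci with 1 symbol that of the highest mean was taken. Loci of at least 1 FPKM in at least 1 heart (43172, of them 17960 annotated) entered limma 3.58.1 in R 4.3.3 as log2(FPKM + 1), with lmFit and eBayes with trend, without covariates, and p-values were adjusted over all tested loci. FPKM was read as a level per length, so levels were set beside each other between genes.

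Values are named for every called gene, for ligand and receptor pairs and for the highest gene of each class, and for up to 8 called genes of the other pathways. The 41 genes and the lists were chosen with earlier results of these data known. Alternatives were a pseudocount of 0.1, no filter or a filter on every heart, median-ratio, quantile and pan-endothelial scaling, sample weights, no trend, the adjusted p alone, a replicate block, GC correction (lowess of span 0.3 on the GC content of the longest GENCODE M21 transcript, known for 93.4% of annotated loci called higher and 85.3% of the others) and leaving out each heart. GC correction with median-ratio scaling, GC correction of the ratios and the minus-strand locus of Angpt2 were added after the data were seen. Scripts were tested on simulated data. Other steps used pandas 2.3.3 and scipy 1.17.1 under Python 3.11.15.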

Additional observations from a re-analysis of the deposited data

Results flagged for a closer look

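Of 84 groups of 4 hearts, 2 held a heart whose gap to the nearest of the others, divided by the range of the group, was above Dixon's 95% critical value, and about 4.2 would be expected by chance at 1 in 20. For Rasip1, P1 replicate 1 was the highest, at 17.7 FPKM against 11.1 to 11.8 FPKM in the other P1 hearts (gap over range 0.897). For Sox17, P7 replicate 1 was the highest, at 8.78 FPKM against 4.48 to 5.17 FPKM in the other P7 hearts (gap over range 0.840).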

How the results depend on the processing

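The 16 higher calls among the 41 genes became 10 with no filter on low values, 7 with GC correction, 6 with GC correction and the replicate block, 9 with GC correction and median-ratio scaling, and 2 of 18 with scaling to the pan-endothelial level. The 0 lower calls became 1 with the filter on every heart (1.17% of annotated loci), 2 with median-ratio scaling (3.67%) and 2 with quantile normalization (3.31%). With pan-endothelial scaling they became 4 of 18 (30.6%) and with sample weights 1 (0.991%). Of the other pathway genes, the 25 higher calls became 15 with no filter, 8 with pan-endothelial scaling (1.65% of annotated loci) and 9 with GC correction (2.12%). They became 7 with GC correction and the block, and 14 with GC correction and median-ratio scaling (3.44%). The 0 lower calls of the other pathway genes became 1 with the filter on every heart (1.17% of annotated loci), 2 with median-ratio scaling (3.67%) and 2 with quantile normalization (3.31%). These lower calls were 20 of 84 with pan-endothelial scaling (30.6%), 1 with weights (0.991%) and 1 with GC correction and median-ratio scaling (1.41%). The median change of 0.62 became -0.11 over 18 genes with pan-endothelial scaling. The shares of annotated loci called with no filter, or with GC correction and the block, were not taken. A loss of calls particular to these genes cannot be told there from a loss at all loci. The cause of these shifts was not tested.

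With 1 heart left out, the higher calls ranged from 5 to 20 and the lower from 0 to 1 in the 41 genes, from 4 to 33 and from 0 to 0 in the other pathway genes, the median change from 0.50 to 0.78, and the ratios without overlap from 4 to 5. The log2 fold change then crossed 0 for Flt1 (-0.064 to 0.26), Tek (-0.062 to 0.18) and Prox1 (-0.16 to 0.022), and the log2 difference of the ratio for Angpt2/Angpt1 (-0.13 to 0.40), Fabp4/Pecam1 (-0.35 to 0.091), Flt4/Kdr (-0.12 to 0.069) and Vegfc/Flt4 (-0.23 to 0.12). The 4 ratios without overlap became 8 with GC correction on log2(FPKM + 1), chosen after seeing the data, and the sign then turned for Vegfc/Flt4 (0.50), Sox17/Sox18 (0.0017) and Fabp4/Pecam1 (0.15).

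Signs turned with median-ratio scaling for Flt1 (-0.14), Tek (-0.20) and Vwf (-0.085), with quantile normalization for the same genes (-0.19, -0.22 and -0.13), with GC correction, with or without the block, for Plvap (-0.22), Vwf (-0.21) and Prox1 (0.11), with GC correction and median-ratio scaling for Flt1 (-0.15), Tek (-0.059), Plvap (-0.43), Vwf (-0.43), Flt4 (-0.13) and Vegfb (-0.11), and with pan-endothelial scaling for Efnb2 (-0.18), Flt4 (-0.19), Pdpn (-0.046), Vegfc (-0.28), Fabp4 (-0.44) and Vegfb (-0.17). None of these genes was called in either direction as reported.

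The deviations of same-numbered hearts from their stage means correlated at 0.058, 0.218, -0.276 and -0.124. The value of replicate 2 was above its correlations with hearts of other numbers (-0.153 to 0.037), and that of replicate 3 below its own (-0.182 to 0.294). With 4 hearts a stage these values cannot settle whether replicate numbers pair the hearts. With the replicate block 13 of the 41 genes and 20 of the other pathway genes were called higher and 0 lower. The shares of annotated loci called with the block were not taken, so a change particular to these genes cannot be told from one at all loci. Depth is unknown, and 4 hearts a stage cannot go below an exact permutation p of 0.0286.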
